A study of Sus scrofa with 33 samples.

Results

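This account concerns 60 min with a modified Glenn shunt in pigs (Sus scrofa) whose right ventricle had first been made to fail by banding of the pulmonary artery. It sets the last biopsy of each of the 6 pigs in the shunt arm against the biopsy taken from the same animal after 120 min of banding, so 12 of the 33 arrays of the study carry the comparison. The arrays were chosen by their labels, not by any measured value. Each of the 11 pigs was biopsied 3 times in the right ventricular free wall, first at baseline, then when the band had been in place for 120 min, and last when a further 60 min had passed. Assignment to the shunt arm (6 pigs) or the control arm (5 pigs) was random and followed the failure, so the control pigs had the same band and went on with banding alone for the last 60 min. Strain, age and sex of the animals were not given in the sources used here. There was no group free of banding, so everything that happened between biopsies is part of every change.

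A Glenn shunt joins the superior vena cava directly to the pulmonary arterial tree, so that blood from the upper body reaches the lungs without passing through the right ventricle and the ventricle is spared part of its load. Heart muscle under sudden pressure load is known to switch on immediate early genes, cytokines, heat shock proteins and natriuretic peptides, and genes of mitochondrial energy supply are known to decline in the failing heart. The comparison asks which transcripts moved in the hour after the shunt was opened. All levels are log2 array values, a difference of 1 being a doubling, and "later change" means the level at the last biopsy minus the level at 120 min in the same pig.

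The tissue matched its label. Over all arrays the ventricular myosin light chain gene MYL2 averaged 14.9 and the cardiac troponin I gene TNNI3 14.8. The mean level of 16 ventricular cardiomyocyte markers lay between 13.1 and 13.4 in every shunt pig at the last biopsy, against 13.2 to 13.4 at 120 min. The GAPDH 3'-to-5' difference, which grows as RNA degrades, was 0.72 ± 0.12 at 120 min and 0.67 ± 0.18 at the last biopsy (SD, n = 6). Spiked-in control RNAs separated, among the 12 arrays compared, those of shunt pigs 1 to 4 (Dap 3.09 to 3.37) from those of shunt pigs 5 and 6 (Dap 8.27 to 8.75). Changes within a pig compare arrays of a single such set. The control pigs formed another set, so array set and arm cannot be told apart wherever the arms are compared.

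No transcript passed the test for a change over the 60 min with the shunt. Limma's moderated test gave 0 of 23999 probe sets (0% of them) at an adjusted p under 0.05, and the smallest adjusted p was 0.0732. At an unadjusted p under 0.05 there were 2146 probe sets (8.94%), or 662 of the 6765 genes (9.79%), with 375 higher (5.54%) and 287 lower (4.24%). Array quality weights, which give less weight to arrays that stray from the fit, called 46 probe sets, and pig as a random block called 1. Leaving out pig 5 called 11, leaving out pig 4 called 3, and leaving out any other shunt pig called 0.

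The data also set a size on what could have been missed. The median standard error of a later change was 0.09, and the 95% confidence interval lay within a 2-fold change in either direction for 99.4% of the probe sets and within 1.5-fold for 94.7%. These shares include probe sets near the lowest array values, which can hardly report a change, so a narrow interval there says little. Fitted later changes ran from -1.23 to 1.07, and 3 probe sets reached 2-fold, 1 upwards and 2 downwards. Intervals were far wider for the stress genes that banding moved most. Among 23 measured genes of a panel of such genes, the interval stayed within 2-fold for 9.

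After 60 min with the shunt, nearly all of the strongly banding-induced genes were still above baseline. The list used to follow them was drawn from the control pigs alone, as the 65 genes that had risen at least 2-fold at 120 min there. In the shunt pigs 63 of the 65 were above baseline at the last biopsy at an adjusted p under 0.05 (limma), where 16.7% of all genes were, and 63 had been at 120 min, where 11.7% of all genes were. At the last biopsy 56 were at least 2-fold above it, where 2.93% of all genes were. The 2 exceptions at the last biopsy were EGR1, an immediate early transcription factor, and STC1, the secreted glycoprotein stanniocalcin. The median later change of the 65 was -0.06, against -0.01 over all genes, and 27 were positive, where 3172 of 6765 genes were. At unadjusted p, 2 were higher and 0 lower over the hour, where 5.54% and 4.24% of all genes were. The 2 were the interleukin-1 receptor IL1R1 (0.60) and LOC100621607 (0.38). The other probe set of IL1R1, at a mean level of 4.60, gave -0.003. The mean later change of the 65 differed in sign between animals, at 0.11, 0.62, 0.35, -0.71, -0.82 and 0.33 in pigs 1 to 6. In shunt pigs 5 and 6 alone, 41 of the 65 passed against baseline.

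Several of these encode cytokines and acute-phase proteins. PTX3 encodes a pentraxin released in acute inflammation. Its level ran from 5.70 to 8.77 at baseline (median 6.16), from 10.22 to 12.04 at 120 min (median 11.32) and from 10.62 to 12.80 at the last biopsy (median 12.06). Every last biopsy lay above every baseline biopsy, while the levels at 120 min and at the last biopsy overlapped. PTX3 was 34.5-fold above baseline at the last biopsy (log2 5.11, adjusted p = 2.46e-08 in limma), and its later change was 0.58 ± 0.45 (SE, n = 6; adjusted p = 0.754). The change was 1.02, 1.49 and 2.10 in pigs 1, 2 and 6 and -0.25, -0.56 and -0.32 in pigs 3, 4 and 5.

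CCL2, the chemokine that draws monocytes into tissue, had a level of 12.13 to 12.82 at 120 min (median 12.43) and 11.18 to 13.45 at the last biopsy (median 12.81). Its later change was 0.10 ± 0.39, with a 95% interval of -0.72 to 0.91, and it was 3.50 above baseline at the end. Interleukin 6 (IL6) was 3.63 above baseline, with a later change of 0.40 ± 0.58 that ran from -1.71 in pig 4 to 1.70 in pig 1. The neutrophil chemokine CXCL8 and the endothelial adhesion molecule SELE were 3.09 and 3.05 above baseline, with later changes of 0.56 and 0.38. The intervals of all these later changes spanned 0. In pig 4 SELE ended at 6.48, below its baseline of 6.62. Of 30 cytokine and NF-kB target genes, 15 were above and 2 below baseline at the last biopsy, where 16.7% and 23.6% of all genes were. Over the shunt hour 1 of them was higher and 1 lower at unadjusted p, where 5.54% and 4.24% of all genes were, and the median later change was 0.11.

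CCL8, a chemokine close in kind to CCL2, was the cytokine gene with a lower level after the shunt in every pig. It ran from 6.06 to 7.44 at 120 min (median 6.37) and from 5.32 to 6.86 at the last biopsy (median 5.85), and the groups overlapped. The later change was -0.65 ± 0.16, at -0.81, -0.87, -0.68, -0.03, -0.48 and -1.04 in pigs 1 to 6. It missed the threshold (adjusted p = 0.271) and passed only with array quality weights, at -0.72, of the alternatives run. CCL8 had risen by 0.75 at 120 min, and the last biopsy was 0.10 from baseline. In the control pigs the later change was 0.09, and the difference between the arms, -0.74, did not pass either (limma, adjusted p = 0.9997). These comparisons share the 120 min arrays. TRAF6, an adaptor of NF-kB signalling, was likewise lower in 6 of 6 pigs at -0.39, after a rise of 0.88 at 120 min. Its other probe set gave 0.08, at a mean level of 2.85 against 5.20 for the one used. That level is near the lowest array values, so this set can hardly report a fall.

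**Figure D1:**
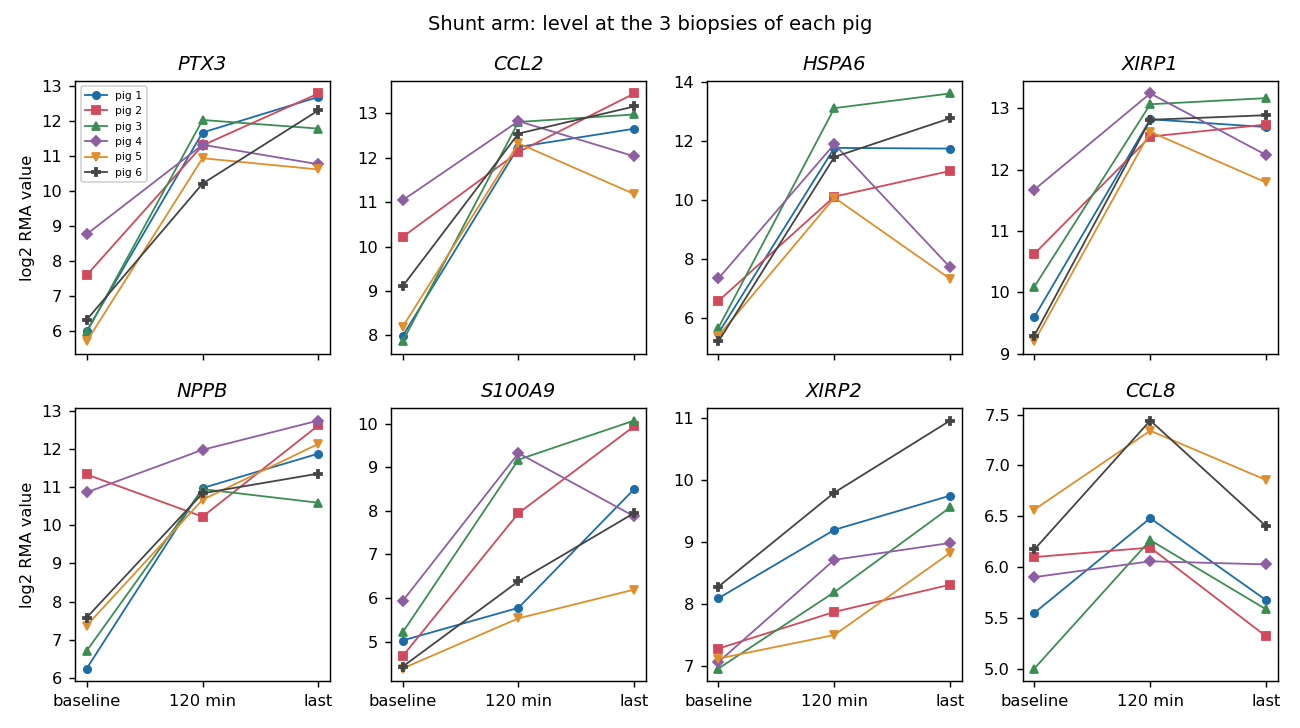
Level (log2 RMA value) at baseline, after 120 min of banding and at the last biopsy for 8 genes, with 1 line and marker per shunt pig. PTX3, CCL2 and XIRP1 at the last biopsy lie above every baseline value, HSPA6 lies far below its 120 min level in pigs 4 and 5 and near or above it in the other pigs, XIRP2 is higher at the last biopsy than at 120 min in all 6 pigs, and CCL8 is lower in all 6.

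Among heat shock genes the largest differences were between animals. HSPA6, a stress-inducible member of the HSP70 chaperone family, had a level of 5.22 to 7.35 at baseline (median 5.59), 10.09 to 13.11 at 120 min (median 11.62) and 7.34 to 13.61 at the last biopsy (median 11.37). The later change was -4.17 in pig 4 and -2.75 in pig 5, and between -0.02 and 1.31 in the other pigs. The fitted mean of -0.71 ± 0.74 therefore carried a 95% interval of -2.25 to 0.83. Over the whole course HSPA6 averaged 26.6-fold above baseline over the 6 pigs (log2 4.73). The last level was 10.99 to 13.61 in pigs 1, 2, 3 and 6. It was 7.73 in pig 4 and 7.34 in pig 5, where the baselines were 7.35 and 5.41. BAG3, a co-chaperone of HSP70 that protects the Z-disc, had changes of the same sign in these animals, at -1.28 in pig 4, -0.93 in pig 5 and 1.00 in both pig 2 and pig 6, and its mean later change was 0.02 ± 0.28. Of 41 heat shock and chaperone genes 25 were above baseline at the end and 3 below, against 16.7% and 23.6% of all genes, with a median later change of 0.06. HSPA4 (0.35), an HSP110-type nucleotide exchange factor, and BAG1 (0.25), a co-chaperone, were higher in 6 of 6 pigs without passing (adjusted p of 0.346 and 0.398). A further probe set of HSPA4, at a mean level of 8.66, gave -0.12 and was -0.40 from baseline, where the one used was 0.96 above it, and the other probe set of BAG1 gave 0.01. HSP90B1, the chaperone of the endoplasmic reticulum, was -0.43 with 5 pigs lower, and -0.16 by its other probe set.

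Immediate early genes had mostly negative later changes that did not pass. Of 24 measured, 7 had a positive later change and 17 a negative one, where 3172 and 3593 of 6765 genes did. The median was -0.12. At an unadjusted p under 0.05 in limma 0 were past, where 5.54% of all genes were higher and 4.24% lower. The list mean moved by -0.26, -0.09, 0.51, -0.41, -0.86 and 0.20 in pigs 1 to 6. BTG2, an antiproliferative early gene, was -0.72 ± 0.39, with -2.43 in pig 5 and -0.76 to 0.20 in the others. The stress transcription factor ATF3 was -0.65 ± 0.55. ATF3 ran from 11.90 to 12.87 at 120 min (median 12.28) and from 10.59 to 12.94 at the last biopsy (median 11.75), lower in 5 of 6 pigs. In the control pigs, with no shunt, the later change of ATF3 was -0.68. BTG2 and ATF3 were on average still above baseline, by 2.54 and 2.72. In pig 4 ATF3 ended below its own baseline, at 11.37 against 12.42. Its baseline was 10.75 in pig 2 and 7.06 to 8.32 in the remaining pigs. CYR61 (matricellular, 3.09 above baseline), MYC (2.22) and IER3 (2.82) had later changes of -0.20, -0.18 and -0.09. FOS did not pass against baseline at the last biopsy (1.02, adjusted p = 0.195), nor did EGR1 (0.49, adjusted p = 0.483). At 120 min neither had passed either, at 1.46 and 0.96. Baseline levels of FOS were 11.83 in pig 2 and 12.55 in pig 4, against 9.95 to 10.93 in the others. Those of EGR1 were 11.50 and 11.99 in pigs 2 and 4, against 9.63 to 10.27. Of the 24 genes, 17 were above baseline at the last biopsy and 0 below, where 16.7% and 23.6% of all genes were.

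Genes of stretch and cell-junction remodelling had later changes of both signs. Of 24 measured, 13 were positive, where 3172 of 6765 genes were, with a median of 0.01. At the end 12 were above and 3 below baseline, beside 16.7% and 23.6% of all genes. XIRP2, an actin binder of the cell-to-cell junctions of heart muscle, ran from 6.95 to 8.28 at baseline (median 7.19), from 7.49 to 9.80 at 120 min (median 8.45) and from 8.31 to 10.96 at the last biopsy (median 9.27). It was higher after the shunt hour in 6 of 6 pigs, by 0.27 to 1.37, and the mean of 0.85 ± 0.22 missed the threshold (adjusted p = 0.297) except with array quality weights (1.06). The control pigs had a later change of 0.72 in the same gene, so the arms differed by 0.14. Its relative XIRP1 was -0.26 ± 0.26 and 2.50 above baseline. ANKRD1, a stretch-responsive ankyrin repeat protein of the sarcomere, was 0.07 ± 0.10 and 1.03 above baseline by a probe set at 14.07 to 14.58 in these biopsies, near the top of the array range. Its other probe set, at a mean level of 11.95, gave -0.21 and was 2.38 above baseline.

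The fitted mean of neither natriuretic peptide RNA declined with the shunt, though single pigs had lower levels. NPPB, which encodes brain natriuretic peptide, a clinical marker of ventricular load, ran from 10.23 to 11.98 at 120 min (median 10.89) and from 10.59 to 12.75 at the last biopsy (median 12.01). Its later change was 0.95 ± 0.60 in the shunt pigs, higher in 5 of 6, and 1.02 in the control pigs, and neither passed. The 95% interval for the shunt pigs, -0.28 to 2.18, does not reach a 2-fold fall. NPPB baseline values of 11.33 in pig 2 and 10.86 in pig 4 stood above the 6.25 to 7.58 of the other pigs. NPPA, atrial natriuretic peptide, was 0.11 ± 0.75 with an interval of -1.45 to 1.67, so a 2-fold change either way was not detectable with these arrays. The later change of NPPA was -1.29 in pig 3, -0.44 in pig 6 and 0.01 to 1.09 in the other pigs, and its fitted sign turned with array quality weights. NPPA was on average only 0.21 above baseline at the last biopsy. FHL1, a LIM-domain protein of load sensing, was 0.22 and higher in 6 of 6 pigs, and its family member FHL2 was -0.37 and lower in 5 of 6. Against baseline FHL1 rose by 1.19 and FHL2 fell by 1.05. MYOCD, the cardiac and smooth muscle coactivator myocardin, was -0.46 and lower in 5 of 6 pigs (adjusted p = 0.329).

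**Figure D2:**
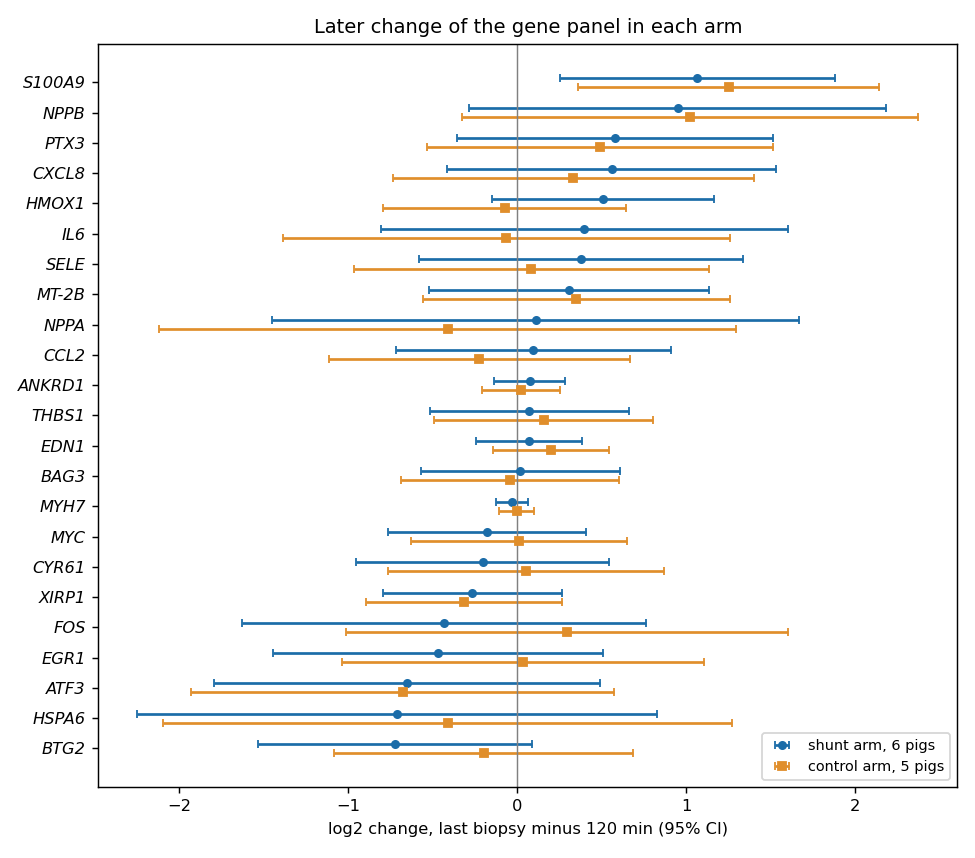
Later change (log2, last biopsy minus 120 min) with its 95% confidence interval for the 23 measured panel genes, shunt arm as circles (6 pigs) and control arm as squares (5 pigs). The intervals of the arms overlap for every gene, and those of S100A9 alone lie above 0, at 1.07 and 1.25 before any adjustment.

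Neutrophil genes had positive later changes with and without the shunt. S100A9, a calcium-binding protein packed in neutrophils, ran from 5.53 to 9.32 at 120 min (median 7.17) and from 6.19 to 10.07 at the last biopsy (median 8.23). The later change was 1.07 ± 0.39 in shunt pigs (adjusted p = 0.417), higher in 5 of 6, and 1.25 in control pigs. In shunt pigs 1 to 6 it was 2.73, 2.00, 0.90, -1.45, 0.66 and 1.57. Of 10 neutrophil and monocyte markers 9 had a positive later change, where 3172 of 6765 genes did. Only 1 of the 10, S100A9, was higher at unadjusted p under 0.05 (limma), where 5.54% of all genes were. At the end 6 were above baseline, where 16.7% of all genes were. Their mean level lay between 5.37 and 6.47 in the shunt pigs at 120 min and between 5.53 and 6.91 at the last biopsy. It moved by 0.64, 0.80, 0.27, -0.68, 0.16 and 0.36 in pigs 1 to 6, and its part in the changes of cytokine genes was not tested. In whole biopsies, more cells of a type and more RNA per cell cannot be told apart. All 4 erythrocyte markers had positive later changes, where 3172 of 6765 genes did, and 1 of them was higher at unadjusted p. They were led by AHSP (0.87), which stabilises alpha haemoglobin, and ALAS2 (0.62), the haem synthesis enzyme of red cells. The erythrocyte mean was higher in 5 of 6 pigs, by 0.42 ± 0.41 on average (SD). In the control pigs it moved by 0.14 ± 0.62 (SD) and was higher in 3 of 5.

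Genes of ribosome assembly and translation had mostly positive later changes, though no member passed. Of 39 measured, 37 had a positive later change, where 3172 of 6765 genes did, and 17 were higher at unadjusted p under 0.05, where 5.54% of all genes were. The median was 0.25, against -0.01 over all genes and 0.04 for the same list in the control pigs. The list was chosen with earlier results of these data known, so its excess over all genes is not an independent result. RIOK1, a kinase of small-subunit maturation, ran from 7.24 to 7.43 at 120 min (median 7.37) and from 7.25 to 7.96 at the last biopsy (median 7.78), and its change of 0.33 ± 0.10 was positive in 6 of 6 pigs (adjusted p = 0.346). RRP9 (0.35), which works in ribosomal RNA processing, the initiation factor subunit EIF3B (0.32) and the small nucleolar RNA-binding protein NHP2 (0.25) followed by p. RRP9 rested on 1 of 3 probe sets, the others giving 0.07 and 0.02, and the other probe set of NHP2 gave -0.15 and was -0.60 from baseline, where the one used was 0.36 above it.

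The count depended on a few animals. The list mean moved by 0.34, 0.74, 0.13, -0.13, -0.17 and 0.43 in pigs 1 to 6. Without pig 2 the count of 17 became 2, without pig 6 it became 6, and without pig 4 or pig 5 it became 27 or 28. With only the 12 arrays compared it was 8. The list had already moved with banding: 28 of the 39 rose and 1 fell by 120 min, where 11.7% and 16.5% of all genes did, and 35 were above baseline at the last biopsy, where 16.7% of all genes were. In the control pigs the list mean moved by 0.05 ± 0.13 (SD, n = 5).

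**Figure D3:**
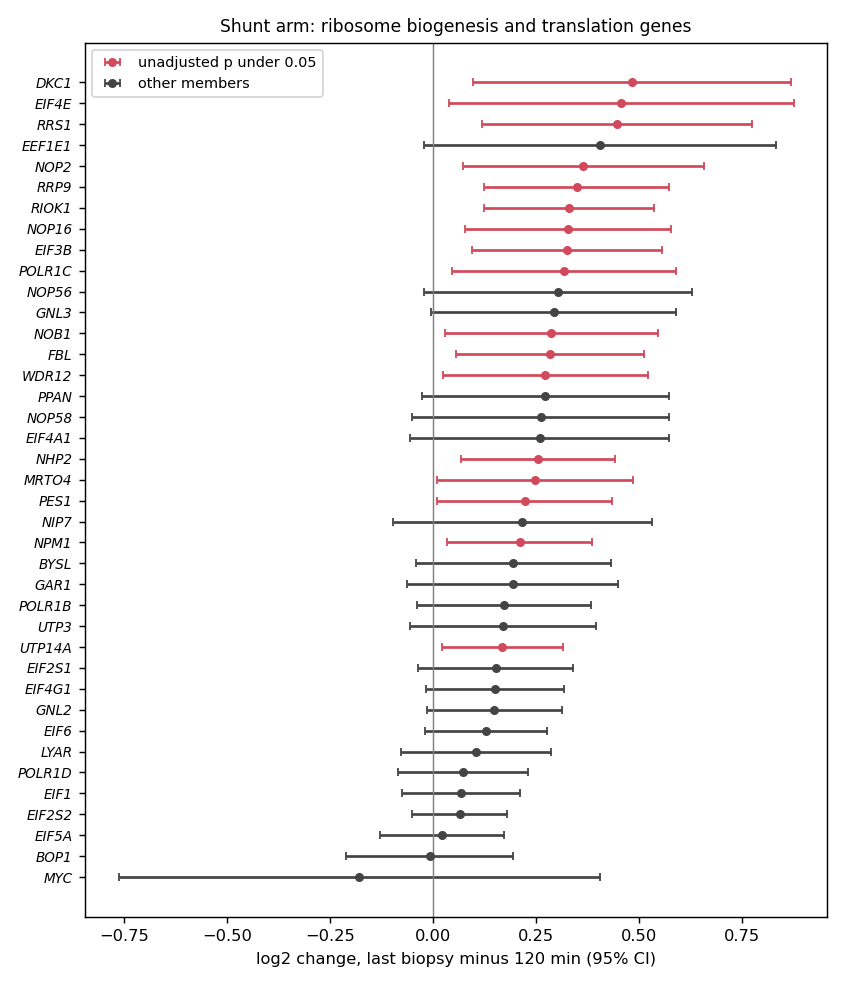
Later change (log2) with 95% confidence interval for the 39 measured genes of ribosome biogenesis and translation in the 6 shunt pigs; members at an unadjusted p under 0.05 (17) are drawn in red, others in grey. All points but those of BOP1 and MYC lie above 0, and the highest is DKC1 at 0.48.

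Genes of energy metabolism had small negative later changes beside their levels below baseline. Of 51 oxidative phosphorylation subunits 33 were below baseline at the last biopsy and 0 above, where 23.6% of all genes were below, against 15 below at 120 min, where 16.5% of all genes were. These comparisons share the baseline arrays. Over the shunt hour 9 of the 51 had a positive change, where 3172 of 6765 genes did, and the median was -0.04, against -0.01 over all genes. Every interval lay within 2-fold and 0 members were past an unadjusted p under 0.05 (limma). The ATP synthase subunit ATP5D was -0.14 and lower in 6 of 6 pigs. Of 25 tricarboxylic acid cycle and pyruvate genes, 13 were below baseline and 2 above at the end, where 23.6% and 16.7% of all genes were. At 120 min 1 had been below and 2 above, where 16.5% and 11.7% of all genes were. Over the shunt hour 23 of the 25 had a negative change, where 3593 of 6765 genes did, and the median was -0.11. The isocitrate dehydrogenases IDH3B (-0.17) and IDH1 (-0.22) were each lower in 5 of 6 pigs. At unadjusted p under 0.05 these 2 members were lower and 1 was higher, where 4.24% and 5.54% of all genes were. The higher member was ACO1 (0.16), with pig 5 alone lower. The mean of this list was lower in 5 of 6 shunt pigs, at -0.10 ± 0.09 (SD), and 0.01 ± 0.21 in control pigs.

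Fatty acid genes had members in both directions. SLC27A6, a fatty acid transporter of heart muscle, was -0.43 and lower in 6 of 6 pigs (adjusted p = 0.346), while it was 0.02 in control pigs, and its other probe sets gave 0.00 and 0.06 in the shunt pigs. LPIN1, a phosphatidate phosphatase and transcriptional coactivator, was 0.48 and higher in 5 of 6, after a rise of 1.36 at 120 min. Over 38 such genes the median was -0.07, against -0.01 over all genes, and 10 were positive, where 3172 of 6765 genes were. Sarcomere and Z-disc genes (28, median -0.04) and ion channel and calcium handling genes (24, median -0.06) lay near 0.

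Genes of vessel tone and vessel growth had later changes of both signs, from -0.51 to 0.40, with 10 of 30 positive, where 3172 of 6765 genes were. The vessel-destabilising ligand ANGPT2 was 0.29. The angiotensin receptor AGTR1 was -0.48 (lower in 4 of 6 pigs), the cyclic nucleotide phosphodiesterase PDE3A, the target of milrinone, -0.51 (lower in 4 of 6), and the endothelin receptor EDNRA -0.27 (lower in 6 of 6). None passed, with adjusted p of 0.407, 0.424 and 0.434, and the other probe set of PDE3A gave -0.08. These 3 of the 30 were lower and 0 higher at unadjusted p, where 4.24% and 5.54% of all genes were, and the median was -0.02. The protein kinase A subunit PRKACB was -0.32 and lower in 6 of 6. EGFR, the epidermal growth factor receptor, was 0.45 and higher in 6 of 6 pigs, after a change of 0.00 at 120 min, and its other probe set gave 0.13.

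The other stress and signalling lists gave no member past the test over the shunt hour. Of 19 IL-6 and STAT3 acute-phase genes, 12 were above baseline at the last biopsy and 1 below, where 16.7% and 23.6% of all genes were, and the median later change was 0.14. The neutrophil protein S100A8 (0.40) and haptoglobin (HP, 0.38), which binds free haemoglobin, were among them. Of 26 genes of endothelial activation, 14 were above baseline and 1 below, against the same shares of all genes, with a median of 0.12, and P-selectin (SELP), which catches leukocytes on the vessel wall, was 0.53 and higher in 4 of 6 pigs. For 30 oxidative stress and metallothionein genes the median was 0.07, with GCLM (0.40), of glutathione synthesis, and GPX1 (0.31), a glutathione peroxidase, opposite to catalase (CAT, -0.23). The haem oxygenase HMOX1 was 0.51 ± 0.32 and 2.09 above baseline. None of these later changes passed, and the mean later change of the cytokine, acute-phase and endothelial lists was negative in pigs 4 and 5 and positive in the other pigs.

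Matrix, glycolysis, protein turnover and hormone lists had medians between -0.08 and 0.08. Among 36 matrix genes (median 0.05) tenascin C (TNC), a matrix protein of injured tissue, was 0.77 ± 0.39 and 2.50 above baseline, and TIMP3, an inhibitor of matrix metalloproteinases, was -0.31. Among 33 glycolysis and hypoxia genes (median 0.01) the enolase ENO1 was 0.26. The 27 unfolded protein genes had a median of 0.03, the 25 glucocorticoid-induced genes -0.02, the 25 interferon-stimulated genes 0.02, the 42 protein breakdown genes 0.02 and the 28 p53 and growth arrest genes -0.01. FBXO32, the muscle ubiquitin ligase atrogin-1, was -0.33 and lower in 5 of 6 pigs, and it fell by 1.13 from baseline to the last biopsy. The 20 adrenergic and cyclic AMP genes had a median of -0.06, the 8 clock genes -0.08 and the 10 EGF receptor and ERK feedback genes 0.08.

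**Figure D4:**
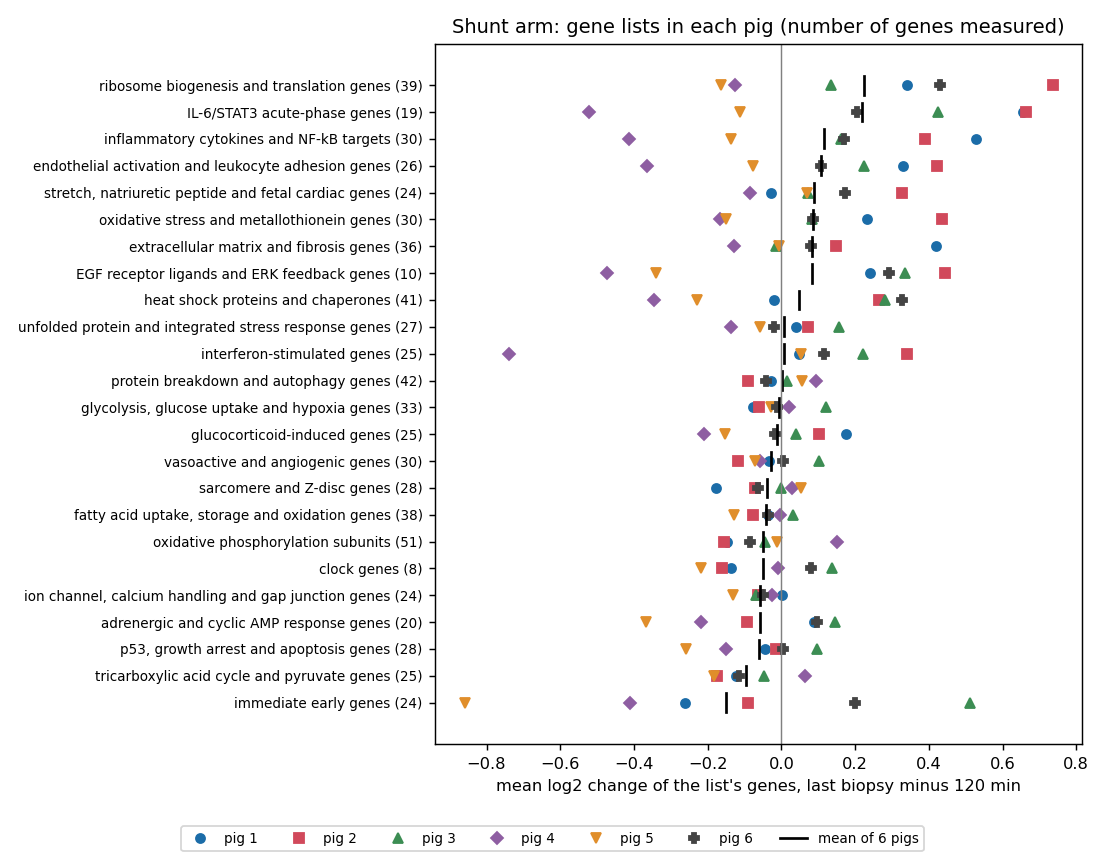
Mean later change (log2) of the measured genes of 24 lists in each of the 6 shunt pigs (markers) and over the pigs (vertical bars), with the number of genes measured in brackets. Pigs 4 and 5 lie below 0 for the cytokine, heat shock and ribosome lists where pigs 2, 3 and 6 lie above, and the sarcomere, oxidative phosphorylation and tricarboxylic acid lists lie between -0.18 and 0.15 in every pig.

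Ranked by p, the named genes at the head of the later change were of varied function. PIGX, which works in the synthesis of membrane anchors, ran from 6.61 to 7.12 at 120 min (median 6.84) and from 6.91 to 7.38 at the last biopsy (median 7.21). It was higher in 6 of 6 pigs, by 0.20 to 0.44 (mean 0.31 ± 0.06, adjusted p = 0.174). It had fallen by 0.32 at 120 min and was -0.01 from baseline at the end, and the control pigs gave 0.03. POGK, a zinc finger gene derived from a transposable element, was 0.38 ± 0.08 and higher in 6 of 6 pigs, against 0.00 in control pigs, though its other probe set gave 0.06. The nucleolar protein genes FCF1 (0.36) and MYBBP1A (0.29) and the methylated DNA-binding protein gene MBD2 (0.33) completed the upper end. A further probe set of FCF1 gave -0.16, and other sets of MBD2 gave 0.21 and 0.05. With array quality weights PIGX (0.29), POGK (0.35), FCF1 (0.35) and MYBBP1A (0.34) passed.

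At the lower end stood PANK1, a pantothenate kinase at the entry to coenzyme A synthesis. Its level ran from 7.77 to 8.42 at baseline (median 7.87), from 6.96 to 7.52 at 120 min (median 7.16) and from 6.11 to 7.20 at the last biopsy (median 6.58). The later change was -0.63 ± 0.12 and lower in 6 of 6 pigs (adjusted p = 0.105), following a fall of 0.75 at 120 min. It passed without pig 5 and with array quality weights, at -0.69 in both. In control pigs it was -0.41, and the difference between the arms of -0.22 did not pass (unadjusted p = 0.240). Its other probe sets gave -0.19 and -0.09. ZNF397, a zinc finger protein gene, was -0.51 (passing without pig 4, at -0.63), DPP4, a cell-surface peptidase, -0.39, FAM216B -0.68 and the nuclear export receptor XPO7 -0.28, the last 3 lower in 6 of 6 pigs. SESN1, a stress-induced inhibitor of mTORC1 signalling, was -0.52 and lower in 6 of 6 pigs, with its other probe set at -0.50, and had fallen by 0.78 at 120 min. With array quality weights ZNF397 (-0.55), DPP4 (-0.39) and SESN1 (-0.54) passed as well.

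**Figure D5:**
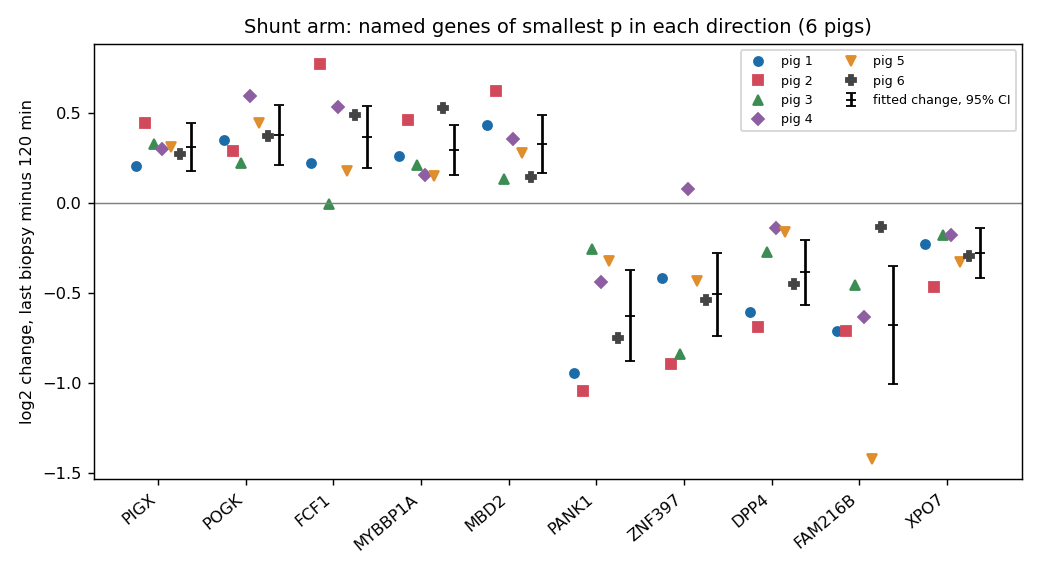
Later change (log2, last biopsy minus 120 min) of the 10 named genes of lowest p, 5 higher and 5 lower, in each of 6 shunt pigs (markers), with the fitted mean and 95% confidence interval (black). PIGX, POGK, MYBBP1A and MBD2 are above 0 and PANK1, DPP4, FAM216B and XPO7 below 0 in all pigs, while FCF1 and ZNF397 have a pig at or across 0.

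No gene's later change differed between the shunt arm and the control arm by the test. Limma's interaction test gave 0 of 23999 probe sets (0%) at an adjusted p under 0.05 and 737 at unadjusted p (3.07%), and the control arm alone gave 0 (0%) with 737 unadjusted (3.07%). For the difference the 95% interval lay within 2-fold for 98.1% of the probe sets and within 1.5-fold for 86.1%, again with those near the lowest array values included. The named genes of smallest p for the difference were CYP3A29, a cytochrome P450 of drug metabolism (0.71), CDH6, a cadherin (0.40), FARSA, a phenylalanyl-tRNA synthetase subunit (0.34), the nucleotide kinase NME3 (0.32) and POGK (0.38) among those higher with the shunt. Among those lower were TRAF6 (-0.68), the fatty acid elongase ELOVL3 (-0.42), C7H14orf1 (-0.28) and the synaptic protein gene SNAP91 (-0.45), beside CCL8. Each sat among 158 genes at unadjusted p (2.34%). CDH6 and ELOVL3 had mean levels of only 2.84 and 3.16, near the lowest values of the arrays (2.21 to 2.44).

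Later changes differed from pig to pig. Correlations of the later changes between pairs of pigs, over all probe sets, ran from -0.26 to 0.52 with a median of -0.06. They are across probe sets, which are not independent. Pig 2 had the most 2-fold later changes, 394 up and 269 down, and pig 6 42 up and 16 down. In pigs 1 and 3, as in pigs 2 and 6, more probe sets were up 2-fold than down (124 against 23 and 53 against 26), and in pigs 4 and 5 more were down (60 against 166 and 32 against 88). A same direction in all 6 pigs was found for 177 genes upwards (2.62%) and 152 downwards (2.25%).

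Set against baseline, the shunt hour ended far from the starting state. At the last biopsy 2725 of 6765 genes differed from baseline (40.3%), with 1129 higher and 1596 lower, and at 120 min 1911 had (28.2%), by limma's adjusted p under 0.05, with the baseline arrays shared. Of the 23 panel genes, which were chosen with earlier results of these data known, 19 were above baseline at both times, where 16.7% of all genes were at the last biopsy and 11.7% at 120 min. In 9 of the 23 the last biopsies did not overlap the baseline biopsies, where 10.3% of all genes did not. In shunt pigs 1 to 4 alone 4804 probe sets passed against baseline, and in pigs 5 and 6 alone 1172, against 7815 in all 6 (32.6%).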

How the data were processed

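RNA from 33 biopsies was hybridised to 33 Affymetrix Porcine Genome Arrays. The authors deposited log2 values, 1 per probe set, made with RMA per the submitters' processing notes. Its software version and the extent of joint normalisation were not given in the sources used here. They were used as deposited. Of 24123 probe sets, 124 controls were left out and 23999 tested. Symbols came from the platform annotation (10069 probe sets with a single symbol, 198 with several, 13732 with none; 9961 matched RefSeq). A gene was read from its probe set with the highest mean, which gave 6765 genes, 2261 of them with more than 1 probe set. No genome build or sequence was used.

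Changes were fitted in R 4.3.3 with limma 3.58.1 (lmFit, eBayes; statmod 1.5.0 for the random block) on all 33 arrays, with pig as a fixed block and a coefficient per arm and biopsy, leaving 18 residual degrees of freedom. Tests were two-sided, with Benjamini-Hochberg adjustment over 23999 probe sets and a threshold of 0.05. Adjusted p-values are limma's. SE is that of the fit and SD the spread between pigs. Pig was a block because the labels name the same animal at each biopsy. Checked on the values of the 12 arrays, deviations of the same pig correlated at 0.19 to 0.71 (median 0.60) and those of different pigs at a median of -0.17. Pigs are separate animals, with 1 biopsy and 1 array per time and no technical repeats. Precision is limited by the number of arrays, which have no depth.

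The genes and the 24 gene and 14 marker lists were chosen with earlier results of these data known. Named genes were the 5 of smallest p in each direction for the later change and for the difference between arms, a panel of 26 (23 measured), the 10 largest rises in control pigs alone, and the 4 members of smallest p of each gene list (2 of each marker list). STC1, LOC100621607, BOP1, DKC1 and the markers MYL2 and TNNI3 were named after their values were seen. Lists are given by counts and medians, with no set test. The fit was tested on simulated data. Alternatives were other blocks, arrays, scalings, filters, weights and probe set rules, and each pig left out in turn.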

Additional observations from a re-analysis of the deposited data

Results flagged for a closer look

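In 139 groups of 6 shunt pigs (98 genes and 41 lists), 5 had 1 pig that lay far from the other 5. Chance alone gives about 1 such group in 20. The later change of BTG2 was -2.43 in pig 5 and between -0.76 and 0.20 in the others. FHL2 was 0.29 in pig 4, where the others lay between -0.63 and -0.40, and VLDLR, the very low density lipoprotein receptor, was 0.25 in pig 4, where the others lay between -0.39 and -0.20. TPM2, a tropomyosin, was 1.29 in pig 1 and between -0.16 and 0.28 in the others. The mean later change of 25 interferon-stimulated genes was -0.74 in pig 4 and between 0.05 and 0.34 in the others. The causes were not tested.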

How the results depend on the processing

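The absence of calls over the shunt hour held under the alternatives run except array quality weights (46 probe sets, 30 higher and 16 lower), pig as a random block (1) and leaving out a pig (0 to 11). Without the pig block (no pairing of the replicates) the count was 0, with 1107 at unadjusted p. The difference between arms and the control arm gave 0 under every alternative run. Against baseline at the last biopsy, calls were 2779 by the mean of a gene's probe sets (over genes), 2422 with a minimum of 1.5-fold, 4804 in pigs 1 to 4 alone, 1172 in pigs 5 and 6 alone and 6497 to 8047 with a pig left out. At 120 min against baseline they were 1910, 1658, 2369, 454 and 4214 to 5910 in that order, and 3771 without the replicate block. The control-pig genes above baseline numbered 41 of 65 in pigs 5 and 6 alone and 57 to 63 with a pig left out. Ribosome genes at unadjusted p numbered 8 with only the arrays compared, 29 with array weights, 0 with a minimum of 1.5-fold, 8 in pigs 1 to 4, 1 in pigs 5 and 6 and 2 to 28 with a pig left out.

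Of 98 named genes 81 kept the direction of their later change in all 24 settings. Turned signs were NPPA -0.23 with array weights; ANKRD1 -0.070, BAG3 -0.0094, THBS1 -0.038 and TPM2 -0.048 with the mean of probe sets; MYC 0.022, NPPA -3.57e-05, IER3 0.082 and PHLDA2 0.29 in pigs 1 to 4 alone; and CCL2 -0.27, EDN1 -0.18, IL6 -0.19, MT-2B -0.020, SELE -0.53, THBS1 -0.25, HP -0.13, ACO1 -0.012 and CAPN1 0.044 in pigs 5 and 6 alone. With a pig left out the values ran from -0.020 to 0.14 for EDN1, -0.054 to 0.24 for THBS1, -0.18 to 0.28 for BAG3, -0.15 to 0.34 for CCL2, -0.030 to 0.63 for MT-2B, -0.087 to 0.39 for NPPA, -0.27 to 0.15 for IER3, -0.51 to 0.20 for PHLDA2, -0.35 to 0.023 for CYR61 and -0.33 to 0.079 for MYC. None of these genes passed the test. The fit on the 18 shunt arm arrays was chosen after the data were seen. The causes were not tested.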

Other observations

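Some further named genes had later changes that did not pass the test. The clock gene ARNTL, a core activator of the circadian loop, was 0.43 higher (adjusted p = 0.340 in limma) after a rise of 0.65 at 120 min, while RORA, which drives its transcription, was -0.43 and lower in 5 of 6 pigs. TGFB2, a transforming growth factor, was 0.34 and WARS, a tryptophanyl-tRNA synthetase, 0.25, each higher in 6 of 6 pigs. Other probe sets gave 0.21, 0.14 and -0.10 for TGFB2 and 0.24 and 0.35 for WARS. MCAM, an adhesion molecule of pericytes and smooth muscle, was 0.61 (adjusted p = 0.329), its other probe set gave 0.47, and the mean of 8 smooth muscle and pericyte markers was higher in 6 of 6 pigs, by 0.19 ± 0.10 (SD), against 0.05 ± 0.18 in the control pigs.

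The probe sets with the smallest p carried no gene symbol in the annotation used. The first was 0.93 ± 0.16 and the next 0.50 ± 0.09 (both adjusted p = 0.0732 in limma), each higher in 6 of 6 shunt pigs.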
